A study of Mus musculus with 30 samples.

Results

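The genes of glycolysis and lactate metabolism were followed in fracture callus through 32 members, out of 55416 genes in the count table. The members were listed by symbol, with earlier results of these data known. They hold 2 glucose transporters, 3 hexokinases, 4 enzymes of the upper steps, 3 phosphofructokinases, 4 PFKFB enzymes, 8 enzymes of the lower steps, 2 lactate dehydrogenases, 2 lactate transporters and 4 pyruvate dehydrogenase kinases. The muscle isoforms Pfkm, Pgam2 and Eno3 were kept apart from the other 29. Total RNA came from the fractured tibia of adult mice, whose ages the labels do not give, at 3, 6, 10 and 14 days after a closed fracture without fixation (3-, 6-, 10- and 14-dpf). P-Apex1KO mice carry Prrx1-Cre and both floxed Apex1 alleles (Prrx1-Cre+;Apex1C/C), and their WT littermates were Prrx1-Cre+/-;Apex1C/+, Apex1C/C or Apex1C/+, so some WT mice carry the Cre with one floxed allele and the labels do not say which. Prrx1-Cre acts in limb bud mesenchyme and its descendants, so blood, vessel, nerve and muscle fiber cells of the callus keep Apex1. The groups were 4 WT (2 females) and 4 P-Apex1KO (1 female) mice at 3-dpf, 5 WT (3 females) and 3 P-Apex1KO (1 female) at 6-dpf, 4 WT (2 females) and 3 P-Apex1KO (1 female) at 10-dpf, and 4 WT (1 female) and 3 P-Apex1KO (3 females) at 14-dpf.

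Glycolysis turns glucose into pyruvate in the cytosol, and lactate dehydrogenase turns pyruvate into lactate, which leaves the cell through monocarboxylate transporters. Pyruvate dehydrogenase kinases switch off the enzyme complex that would send pyruvate to the mitochondria. Chondrocytes live in cartilage without vessels and rely on glycolysis, and many genes of the pathway are known targets of the hypoxia-inducible factor HIF-1. Several steps have a broadly expressed isoform and another used by skeletal muscle fibers, so bulk RNA of a callus carries both.

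The libraries held 18334389 to 43111491 reads on genes, and each of the 32 members passed the filter on low counts in every comparison, with 48 to 90923 reads per member and library. Levels are CPM (reads relative to library size, scaled with TMM over the 30 libraries), and genotype differences are log2 fold changes of P-Apex1KO against WT with their standard errors (SE), from edgeR's quasi-likelihood F test that also fitted sex, with p-values adjusted by Benjamini-Hochberg over every gene tested and called at 0.05. Apex1, in CPM, was 30.3 ± 2.86 (SD, n = 4) for WT at 3-dpf and 27.4 ± 6.71 (SD, n = 4) for the libraries labelled P-Apex1KO, with a difference of -0.15 ± 0.19 SE (adjusted p = 0.927) on the log2 scale, so the 3-dpf libraries are named here by their label. The change was -0.67 ± 0.11 SE (adjusted p = 0.00709) at 6-dpf, -0.65 ± 0.13 SE (adjusted p = 0.0278) at 10-dpf and -0.29 ± 0.19 SE (adjusted p = 0.367) at 14-dpf, and at these times the CPM of the genotypes did not overlap. Since 1 WT mouse and every P-Apex1KO mouse of 14-dpf was female, the genotype difference of that time is set, once sex is fitted, by WT replicate 1, in which the muscle genes also stood high. In bulk RNA, fewer cells of a type and less RNA per cell cannot be told apart.

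Per kilobase of transcript, the pathway was led by the same 4 genes in each WT group. In WT callus at 6-dpf the aldolase Aldoa had 729 RPKM (mean, n = 5; CPM divided by the canonical transcript's length in kilobases), Gapdh, the enzyme of the first energy-yielding step, 587, the pyruvate kinase Pkm 416 and Ldha 411. The triosephosphate isomerase Tpi1 followed at 242 RPKM and the enolase Eno1 at 222. Pkm and Ldha overlapped, with Pkm at 361 to 491 and Ldha at 352 to 464 RPKM over the 5 WT mice. The lowest members were Pfkfb1 at 2.01, Eno2 at 2.11 and Pfkfb2 at 3.76 RPKM, with Aldoc at 8.61 RPKM. The summed level of the 29 genes was 5317 to 6376 CPM in WT mice at 3-dpf, 5912 to 7123 at 6-dpf, 2991 to 4679.6 at 10-dpf and 3315 to 3779 at 14-dpf. The sample names change between 6- and 10-dpf, so whether these libraries form another batch is not given, and no test was made across that step.

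At 3-dpf no member differed between WT and the libraries labelled P-Apex1KO, where 0% of all 19866 genes tested passed the threshold. The smallest adjusted p of a member was 0.768, and 6 of 32 members had an unadjusted p under 0.05, with 6.12% of all genes. The CPM of the groups did not overlap for 5 of 32 members, against 3.66% of all genes, and these were Hk2, Gpi1, Aldoa, Pfkm and Pgam2, each higher in the libraries labelled P-Apex1KO. Hk2, a hexokinase that muscle and growing cells use, had 97.8, 105, 91.1 and 119.5 CPM in the WT libraries and 180.0, 151, 131 and 136 CPM in the libraries labelled P-Apex1KO, a log2 fold change of 0.48 ± 0.12 SE, adjusted p = 0.768. For the named enzymes the log2 fold change was 0.20 for Gapdh, -0.07 for the phosphoglycerate kinase Pgk1, 0.08 for Ldha, 0.09 for Pkm, -0.21 for Eno1 and 0.61 for Aldoa. The muscle isoforms had 0.86 for Pfkm, 1.09 for Pgam2 and 0.92 for Eno3, beside a median of 0.88 for 21 skeletal muscle genes, none of which passed. The summed CPM of those 21 genes was 8274 to 11140.4 in WT and 10056 to 26931 in the libraries labelled P-Apex1KO, and their part in the values was not tested. DESeq2's Wald test called 1 member, Pgam2, as higher, where of 19866 genes 82 were higher and 3 lower. In the 7 lists of neighbouring pathways and the 10 lists of cell types 0 genes passed at 3-dpf.

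At 6-dpf the pathway split by isoform. Of the 32 members 17 passed the threshold, 53.1% against 10.9% of the 20260 genes tested, with 11 lower (background 5.61%) and 6 higher (background 5.31%) in P-Apex1KO mice. The CPM values of WT and P-Apex1KO mice were apart for 19 of 32 members, against 20.6% of all genes, and all 17 called members were among these. An unadjusted p under 0.05 was reached by 22 of 32, against 26.2% of all genes. The 11 lower members were Slc2a1, Pfkl, Pfkp, Aldoc, Tpi1, Pgk1, Pgam1, Eno1, Slc16a3, Pdk1 and Pdk3, which include the glucose transporter GLUT1, liver- and platelet-type phosphofructokinase and the lactate exporter MCT4. The 6 higher members were the muscle isoforms Pfkm, Pgam2 and Eno3 with Aldoa, Pdk2 and Pfkfb4. The median log2 fold change was -0.24 over the 29 genes and 1.21 over the 3 muscle isoforms, against 0.01 over all genes tested.

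**Figure D1:**
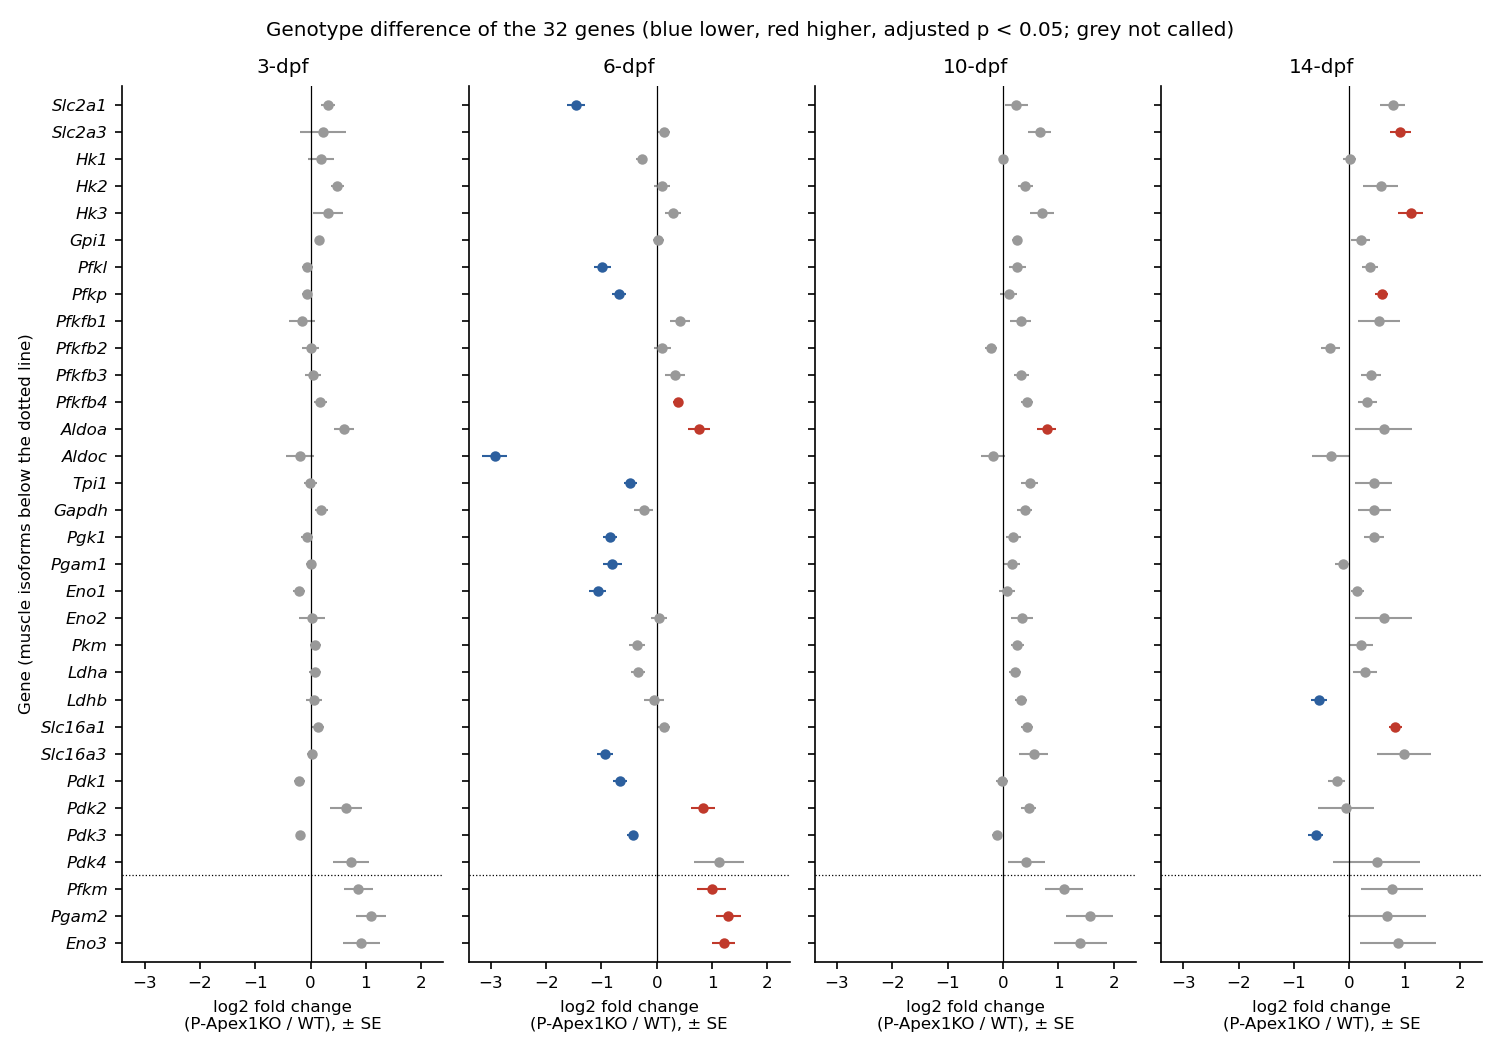
Log2 fold change of P-Apex1KO against WT (x axis, with its standard error) for each of the 32 genes (y axis) at 3-, 6-, 10- and 14-dpf, with the 3-dpf libraries taken by their label; blue marks lower and red higher at an adjusted p under 0.05, and grey marks no call. The 11 blue and 6 red points at 6-dpf stand beside 0 calls at 3-dpf, 1 at 10-dpf and 6 at 14-dpf.

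Of the glucose transporters, Slc2a1 was lower (ENSMUSG00000028645, chromosome 4 from 118965908 to 118996365 of GRCm39), which encodes GLUT1. The 5 WT mice had 87.6, 93.2, 103, 119 and 139 CPM and the 3 P-Apex1KO mice 40.8, 40.8 and 32.1 CPM. Every P-Apex1KO mouse lay below every WT mouse, with a log2 fold change of -1.46 ± 0.16 SE, adjusted p = 0.0012. Slc2a3, which encodes GLUT3, the transporter of leukocytes and neurons, had 77.7 ± 4.47 CPM (SD, n = 5) and 83.8 ± 16.0 CPM (SD, n = 3), and its log2 fold change of 0.12 (adjusted p = 0.595) did not pass. None of the hexokinases, which trap glucose as its phosphate, passed: the log2 fold change was -0.27 for Hk1, 0.10 for Hk2 and 0.29 for Hk3, the hexokinase of myeloid cells, and Hk1 was without overlap at 128 to 171 CPM in WT and 112 to 125 CPM in P-Apex1KO mice.

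In the upper pathway down to the triose phosphates, the strongest fall of all 32 members was that of Aldoc (ENSMUSG00000017390, chromosome 11 from 78213619 to 78218889), the aldolase isoform best known from brain. Its levels were 19.0, 21.5, 22.6, 23.0 and 33.8 CPM in WT and 3.96, 2.85 and 2.01 CPM in P-Apex1KO mice, a log2 fold change of -2.93 ± 0.23 SE, adjusted p = 0.000389. Aldoa, the main aldolase, went the other way, with 1202, 1060.2, 1077, 1124 and 1046 CPM in WT and 1375, 2648 and 1803 CPM in P-Apex1KO mice (0.76 ± 0.20 SE, adjusted p = 0.0374), and the 3 P-Apex1KO mice spread far more than the WT mice. Pfkl (ENSMUSG00000020277, chromosome 10 from 77818084 to 77845922), the liver-type phosphofructokinase of the committed step, had 83.3, 98.1, 101, 126 and 127 CPM in WT and 59.3, 56.5 and 43.2 CPM in P-Apex1KO mice (-0.98 ± 0.16 SE, adjusted p = 0.00622). Pfkp fell by 0.68 on the log2 scale (adjusted p = 0.0111) and Tpi1 by 0.48 (adjusted p = 0.0314), while the glucose phosphate isomerase Gpi1 had 0.03 (adjusted p = 0.9). Among the PFKFB enzymes, which make and remove the activator of phosphofructokinase, Pfkfb4 rose from 34.4 ± 2.44 CPM (SD, n = 5) to 45.3 ± 4.08 CPM (SD, n = 3), a log2 fold change of 0.39 ± 0.09 SE, adjusted p = 0.0245, and Pfkfb1, Pfkfb2 and Pfkfb3 at 0.42, 0.10 and 0.32 did not pass.

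In the lower pathway Eno1 (ENSMUSG00000063524, chromosome 4 from 150321073 to 150337027), the widespread enolase, had 398, 501, 466, 618 and 567 CPM in WT and 259, 259 and 209 CPM in P-Apex1KO mice, a log2 fold change of -1.07 ± 0.16 SE, adjusted p = 0.00399. Pgk1 (ENSMUSG00000062070, chromosome X from 105230706 to 105247305), which makes ATP, had 115, 143, 124, 158 and 168 CPM in WT and 77.4, 81.9 and 78.1 CPM in P-Apex1KO mice (-0.84 ± 0.12 SE, adjusted p = 0.0041). For both genes every P-Apex1KO mouse lay below every WT mouse. The phosphoglycerate mutase Pgam1 fell by 0.80 on the log2 scale (SE 0.17, adjusted p = 0.0163), from 50.8 ± 9.92 to 28.7 ± 4.07 CPM (SD, n = 5 and 3). The most abundant enzymes of this stretch did not pass: Gapdh had 833 ± 129 and 720.0 ± 157 CPM, with a log2 fold change of -0.24 (adjusted p = 0.431), and Pkm 1019 ± 134 and 799 ± 105 CPM, with -0.36 (adjusted p = 0.146). Eno2, the neuronal enolase, had 0.04. Counts per gene do not separate the transcripts of Pkm, and reads shared with processed copies of Gapdh, Pgk1, Eno1, Pgam1 or Ldha were not counted, since the authors kept unique alignments.

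At the lactate end, Slc16a3 (ENSMUSG00000025161, chromosome 11 from 120838846 to 120851694), which encodes the lactate exporter MCT4, had 143, 162, 169.9, 219 and 205 CPM in WT and 94.8, 97.6 and 86.9 CPM in P-Apex1KO mice, a log2 fold change of -0.94 ± 0.14 SE, adjusted p = 0.00426. Slc16a1, which encodes MCT1, did not pass, with 124 ± 17.1 and 128 ± 14.9 CPM and a log2 fold change of 0.13 (adjusted p = 0.524). Ldha, which makes lactate, had 653 ± 74.0 and 519.6 ± 56.1 CPM (-0.34, adjusted p = 0.11), and Ldhb, the isoform of oxidative tissues, 19.8 ± 2.62 and 17.8 ± 5.01 CPM (-0.05, adjusted p = 0.898). The pyruvate dehydrogenase kinases divided: Pdk1 fell from 82.4 ± 9.68 to 51.2 ± 6.84 CPM (-0.66 ± 0.12 SE, adjusted p = 0.00994) and Pdk3 from 44.9 ± 4.40 to 32.8 ± 2.29 CPM (-0.43 ± 0.10 SE, adjusted p = 0.023). Pdk2, which is abundant in muscle and other oxidative tissue, rose, with 42.5, 38.6, 41.0, 37.3 and 33.7 CPM in WT and 53.3, 103.7 and 55.3 CPM in P-Apex1KO mice (0.84 ± 0.22 SE, adjusted p = 0.0409). Pdk4, the isoform induced by fasting, had 113, 42.9, 37.1, 43.4 and 24.1 CPM in WT and 117, 108 and 85.1 CPM in P-Apex1KO mice, and WT replicate 1 lay within the P-Apex1KO range (1.12 ± 0.45 SE, adjusted p = 0.161).

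**Figure D2:**
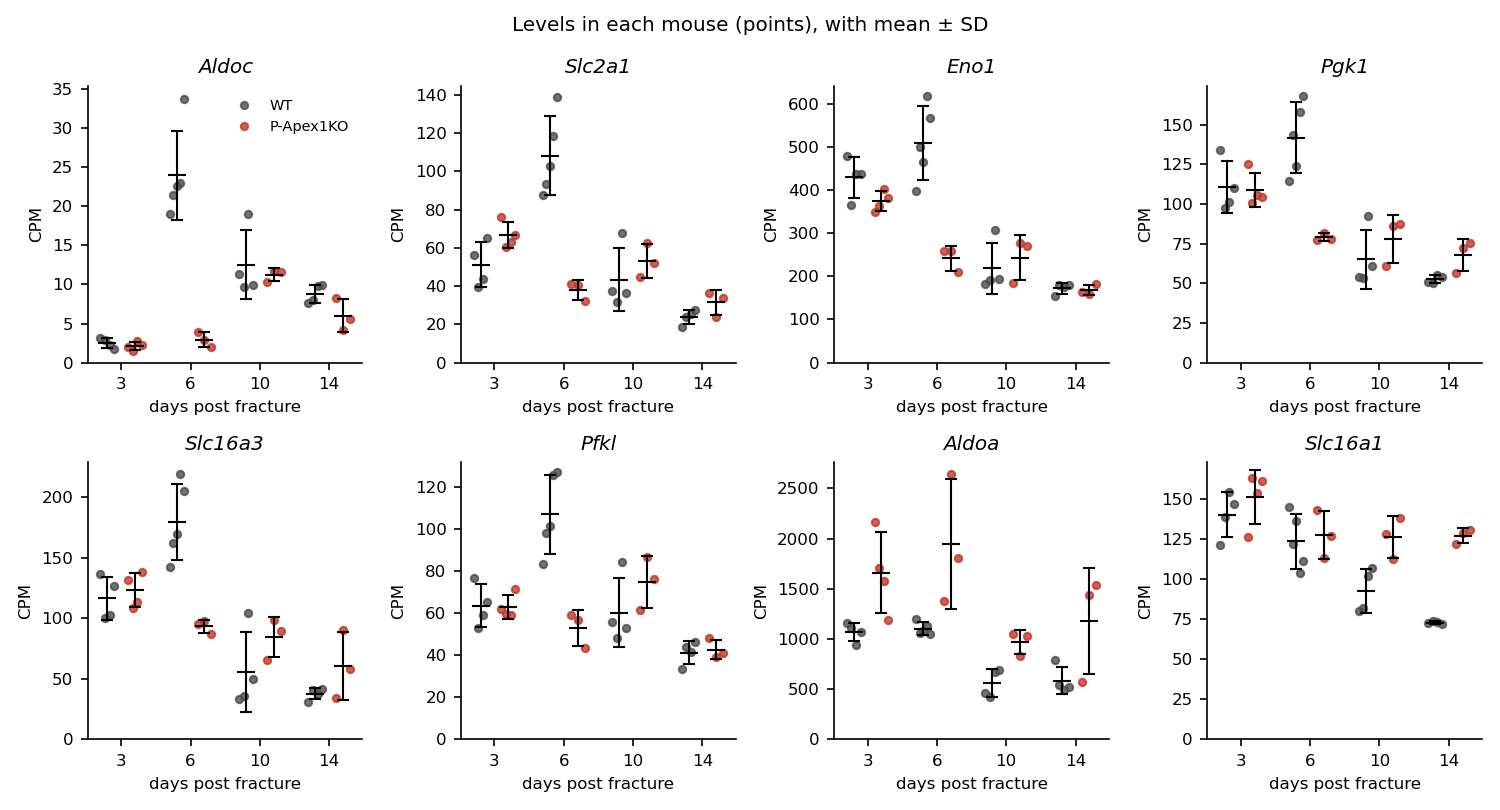
CPM of 8 genes (y axes, linear from 0) in each mouse at 3-, 6-, 10- and 14-dpf (x axes), WT in grey and P-Apex1KO in red by label, with the mean and SD of each group in black. At 6-dpf the red points of Aldoc, Slc2a1, Eno1, Pgk1, Slc16a3 and Pfkl lie below all grey points, those of Aldoa lie above them, and at 14-dpf the 3 red points of Slc16a1 lie above all 4 grey points.

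Leaving out each of the 8 mice at 6-dpf in turn gave 8 to 11 lower and 2 to 7 higher members. Over these fits 523 to 1245 of all genes were lower and 343 to 1197 higher. In these 8 fits Slc2a1, Pfkl, Aldoc, Pgk1, Eno1, Slc16a3, Pdk1, Pgam2 and Eno3 passed each time. Pgam1 lost its call without WT replicate 4 (adjusted p = 0.0614) and Pfkp without P-Apex1KO replicate 1 (adjusted p = 0.062). Pfkm, Aldoa and Pdk2 lost theirs without WT replicate 2, 3, 4 or 5, and Pfkm also without P-Apex1KO replicate 3. Pfkfb4 and Tpi1 lost theirs without WT replicate 2, 3 or 4 or P-Apex1KO replicate 1 or 3, and Pdk3 without WT replicate 2 or 4 or P-Apex1KO replicate 3, with adjusted p up to 0.153 over these fits. Higher members numbered 2 without WT replicate 2, 3 or 4 and 3 without WT replicate 5. With the muscle score as a covariate 0 members passed, where 1 of 20260 genes did. The summed CPM of the muscle genes did not overlap between genotypes at 6-dpf, so this fit separates genotype from muscle poorly.

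The promoters of the 4 members with the largest decreases at 6-dpf are shown as examples of the lower genes, from the gene's first RefSeq window on GRCm38.p6, which is an older build than the gene positions above. Each run gives the 250 bases before the start, 5′ to 3′ along the gene: Aldoc chr11:78322823-78323072 on the plus strand, Slc2a1 chr4:119108495-119108744 on the plus strand, Eno1 chr4:150236458-150236707 on the plus strand and Pfkl chr10:78009808-78010057 on the minus strand. Capitals mark the core of the hypoxia response element, ACGTG or GCGTG on either strand (CACGT or CACGC where the other strand holds it).
Aldoc: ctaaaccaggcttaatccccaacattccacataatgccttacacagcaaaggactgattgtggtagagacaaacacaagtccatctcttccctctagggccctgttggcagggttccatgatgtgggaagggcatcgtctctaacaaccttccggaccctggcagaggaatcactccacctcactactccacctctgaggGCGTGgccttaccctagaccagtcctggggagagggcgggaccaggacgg
Slc2a1: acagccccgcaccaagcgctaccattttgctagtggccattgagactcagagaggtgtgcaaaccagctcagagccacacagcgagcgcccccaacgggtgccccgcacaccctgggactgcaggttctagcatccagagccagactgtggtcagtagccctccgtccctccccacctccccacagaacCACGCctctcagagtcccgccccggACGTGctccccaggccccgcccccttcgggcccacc
Eno1: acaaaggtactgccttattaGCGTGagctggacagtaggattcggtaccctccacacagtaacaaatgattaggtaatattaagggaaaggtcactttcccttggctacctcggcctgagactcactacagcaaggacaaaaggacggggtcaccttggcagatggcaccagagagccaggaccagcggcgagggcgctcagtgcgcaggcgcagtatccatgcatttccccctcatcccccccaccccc
Pfkl: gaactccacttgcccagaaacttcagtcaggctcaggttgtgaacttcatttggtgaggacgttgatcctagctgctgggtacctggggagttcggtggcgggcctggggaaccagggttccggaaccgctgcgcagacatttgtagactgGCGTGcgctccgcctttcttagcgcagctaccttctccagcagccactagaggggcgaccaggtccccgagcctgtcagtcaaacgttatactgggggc

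Aldoc held GCGTG with its first base 50 bases before the start, Slc2a1 the reverse form CACGC at 61 and ACGTG at 36, Eno1 GCGTG at 230 and Pfkl GCGTG at 99. Of the 11 lower members 10 held at least 1 match in this window, with Tpi1 as the exception, and of the 20 other members with a window 13 did. The core is short and 38.6% of all 32851 windows held it, so a match describes the letters only. Windows were found for 31 of 32 members, all except Slc2a3.

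From 3- to 6-dpf most members called in WT were higher at the later time. The paper describes tibiae dissected around the fracture site at 3-dpf and whole callus at 6-dpf. Time and dissection therefore cannot be told apart in either genotype. In WT 10 members were higher at 6-dpf than at 3-dpf (31.2%, against 15.4% of 20468 genes) and 2 lower (6.25%, against 15.1%). In either direction 37.5% of members were called, against 30.5% of all genes. The CPM of the times did not overlap for 9 of 32 members, against 29.4% of all genes, and 15 had an unadjusted p under 0.05, against 40.7%. Aldoc rose most, from 3.12, 2.91, 2.26 and 1.79 CPM at 3-dpf to the values above (3.17 ± 0.22 SE, adjusted p = 1.04e-07), followed by Ldhb (1.11 ± 0.15 SE, adjusted p = 6.47e-05), Slc2a1 (1.07 ± 0.15 SE, adjusted p = 0.000107) and Eno2 (0.81 ± 0.17 SE, adjusted p = 0.00177). Pfkl, Slc16a3, Hk1, Pfkp, Tpi1 and Pgk1 rose by 0.73, 0.62, 0.47, 0.41, 0.41 and 0.34 on the log2 scale, and Pfkfb1 and Pfkfb4 both had -0.55. Gapdh, Ldha, Pkm, Eno1 and Aldoa, at 0.14, 0.20, 0.01, 0.22 and 0.03, did not pass. Of the muscle isoforms Pfkm had -0.08, Pgam2 0.44 and Eno3 0.25, without a call. With the replicate block 7 members were higher and 1 lower, where of 22264 genes 2419 were higher and 2186 lower. Hk1, Pfkfb1 and Pgk1 lost their calls in 11, 5 and 3 of the 16 fits with a mouse removed. With library size as the sole scaling, where the median of all genes was -0.27, there were 6 higher and 6 lower members, and Pkm had -0.24 (adjusted p = 0.0235). Of 20468 genes 1902 were then higher and 6984 lower. Apex1 had -0.35 ± 0.14 SE (adjusted p = 0.0746) over this interval in WT.

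By label, Slc2a1 and Pgk1, which rose in WT, fell in the P-Apex1KO libraries, Ldhb and Eno2 rose in both and Pfkfb4 fell in both. Between 3- and 6-dpf 7 members were lower and 2 higher, against 6.91% and 7.1% of all genes, or 14% in either direction. The CPM of the times did not overlap for 9 of 32 members, against 20.3% of all genes, and 11 had an unadjusted p under 0.05, against 28.4%. Slc2a1 fell by 0.79 on the log2 scale (SE 0.17, adjusted p = 0.00789), from 76.0, 60.5, 62.9 and 66.9 CPM at 3-dpf. Eno1, Pgam1, Hk2, Pkm, Pgk1 and Pfkfb4 fell by 0.62, 0.59, 0.50, 0.45, 0.44 and 0.33, and Ldhb and Eno2 rose by 0.93 and 0.79. Aldoc, at 1.99, 1.50, 2.77 and 2.30 CPM at 3-dpf, had 0.43 (adjusted p = 0.274). Gapdh, Ldha and Aldoa, at -0.28, -0.23 and 0.23, and the muscle isoforms Pfkm, Pgam2 and Eno3, at 0.09, 0.80 and 0.62, did not pass. Lower members numbered 3 without P-Apex1KO replicate 1 or 3 of 6-dpf and 4 without replicate 2, and higher members 5 without replicate 1 of the 3-dpf libraries labelled P-Apex1KO. Of all genes 1414 were lower in the main fit, 834 and 1257 without replicate 1 and 3 of 6-dpf, and 552 without replicate 2. Higher genes numbered 1453 in the main fit and 1631 without that 3-dpf library. With the replicate block 3 members were lower (Slc2a1, Eno1 and Pgam1) and 1 higher (Ldhb), where of 22264 genes 752 were lower and 869 higher. Pfkfb4 lost its call in 12 of the 16 fits with a mouse removed, Pgk1 in 4, and Hk2, Pkm and Pgam1 in 2 each. Apex1 had -0.82 ± 0.17 SE (adjusted p = 0.00487).

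The test of the difference between the genotype differences at 3- and 6-dpf, which share no library, called 7 members, all lower at 6-dpf, against 0.987% of all genes lower, 0.318% higher and 1.3% in either direction. These times also differ in the dissection named above. An unadjusted p under 0.05 was reached by 15 of 32 members, against 12.5% of all genes. The 7 called members were Aldoc (-2.74 ± 0.33 SE, adjusted p = 0.00112), Slc2a1 (-1.86 ± 0.23 SE, adjusted p = 0.00167), Slc16a3 (-0.99 ± 0.17 SE, adjusted p = 0.00976), Pfkl (-0.96, adjusted p = 0.027), Pgam1 (-0.85, adjusted p = 0.0411), Eno1 (-0.83, adjusted p = 0.0317) and Pgk1 (-0.78, adjusted p = 0.0265). All 7 are among the 11 members that were lower at 6-dpf, and 22 of 32 members had a value below 0. Gapdh, Ldha, Pkm and Aldoa had -0.42, -0.43, -0.46 and 0.20, and Pfkm, Pgam2 and Eno3 0.17, 0.35 and 0.37, none past the threshold. Apex1 itself had -0.46 ± 0.22 SE (adjusted p = 0.398). With the replicate number as a block in place of sex, Aldoc, Slc2a1 and Slc16a3 passed and 4 of the 7 did not. With that block 73 of 22264 genes were lower and 17 higher, against 202 and 65 of 20468 in the main fit. Over the 16 fits with a mouse removed 89 to 280 of all genes were lower and 15 to 170 higher. Aldoc, Slc2a1 and Slc16a3 passed in all 16 fits with a mouse removed, while Pfkl, Pgk1, Pgam1 and Eno1 lost their call in 6, 5, 11 and 7 of them. Without WT replicate 2, 3 or 4 of 3-dpf, replicate 3 of the 3-dpf libraries labelled P-Apex1KO or P-Apex1KO replicate 3 of 6-dpf 3 members passed, and without WT replicate 4 of 6-dpf 4.

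**Figure D3:**
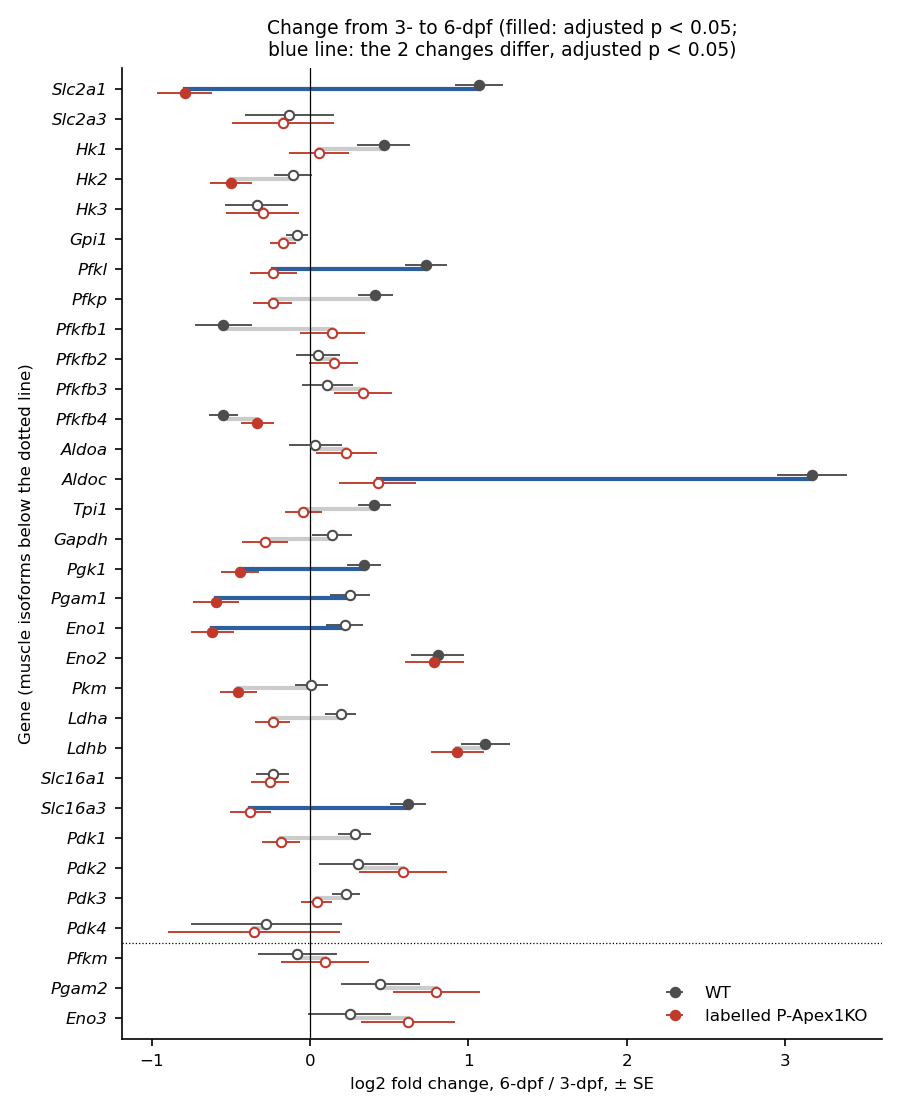
Log2 fold change of 6-dpf against 3-dpf (x axis, with its standard error) in WT (grey) and in the libraries labelled P-Apex1KO (red) for the 32 genes (y axis); filled points passed an adjusted p of 0.05, and a blue bar joins changes that differed between genotypes at that threshold. Aldoc spans 3.17 in WT and 0.43 in P-Apex1KO, and Slc2a1 1.07 and -0.79.

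The muscle isoforms were higher beside a list of 21 skeletal muscle genes that was higher as well. At 6-dpf Pfkm had 175, 154, 167, 128 and 124 CPM in WT and 202, 459 and 272 CPM in P-Apex1KO mice (1.00 ± 0.26 SE, adjusted p = 0.0415). Pgam2, the muscle phosphoglycerate mutase, had 37.3, 35.4, 35.0, 28.6 and 26.5 CPM and 51.9, 112 and 93.1 CPM (1.29 ± 0.22 SE, adjusted p = 0.00927). Eno3, the muscle enolase, had 134, 137, 129, 99.8 and 91.4 CPM and 202, 366 and 289 CPM (1.21 ± 0.21 SE, adjusted p = 0.00782). All 3 were apart, and replicate 2 of the P-Apex1KO mice was highest each time, as it was for Aldoa and Pdk2. The muscle list had 0 lower and 17 higher of 21, with a median of 1.33, and its summed level was 6877 to 12552 CPM in WT and 15299 to 32901 CPM in P-Apex1KO mice, led by Ttn, at a mean of 6992 CPM in the latter, with no gene of the list at 0. With the muscle score in the model, the log2 fold change was 0.42 for Pgam2, 0.41 for Eno3, -0.14 for Pfkm, 0.04 for Aldoa and -0.10 for Pdk2, and -2.49 for Aldoc, -1.30 for Slc2a1, -0.84 for Eno1 and -0.76 for Pfkl. None of these passed, and of all 20260 genes 1 did. Since the muscle sums of the genotypes did not overlap, this fit separates genotype from muscle poorly. How much of the rise of Aldoa, Pdk2 and the isoforms goes with muscle fibers in the sample was not tested.

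**Figure D4:**
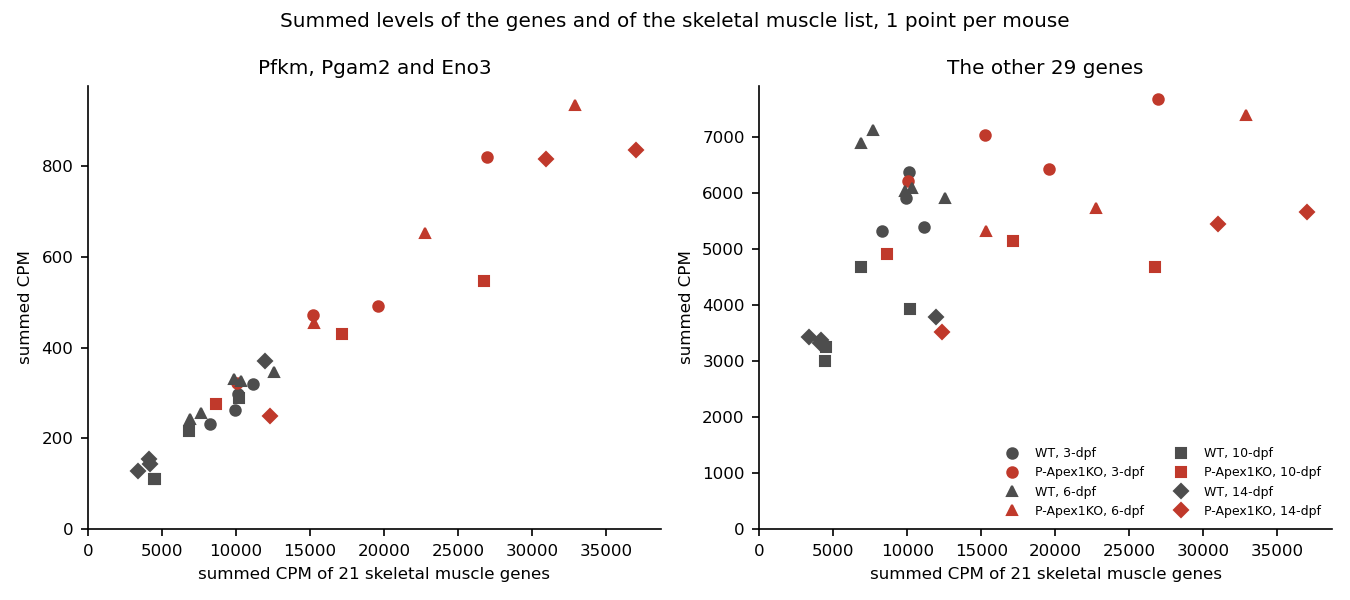
Summed CPM of Pfkm, Pgam2 and Eno3 (left y axis) and of the other 29 genes (right y axis) against the summed CPM of 21 skeletal muscle genes (x axes), 1 point per mouse, WT in grey and P-Apex1KO in red by label, with the time point as the shape. The 3 muscle isoforms together run from 110 to 936 CPM over the 30 mice and the 4 mice with the highest muscle sums hold the 4 highest isoform sums, while the other 29 genes run from 2991 to 7670.5 CPM.

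Other cell type lists moved at 6-dpf beside the glycolytic genes. The cartilage list had 17 lower and 0 higher of 17 (median -2.98), and its summed level was 39471 to 70424 CPM in WT, led by Col2a1, at a mean of 24052 CPM, and 3415 to 6631 CPM in P-Apex1KO mice, with no marker at 0. The osteoblast list had 6 lower and 0 higher of 8 (median -1.21) and 38129.5 to 53503 against 17634 to 27754 CPM, led by Col1a1. The macrophage list had 0 lower and 8 higher of 10 (median 0.81) and 722 to 939.9 against 1304 to 1516 CPM, led by Csf1r. Lymphocyte genes had 0 lower and 5 higher of 9 (median 1.32) and adipocyte genes 0 lower and 4 higher of 6 (median 0.98). No gene passed in the lists for osteoclasts (median 0.21 over 7), neutrophils (0.20 over 10), erythroid cells (0.34 over 7) and endothelium (-0.11 over 7). The share of cartilage, bone or immune cells in the lower and higher glycolytic genes was not tested.

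Part of a hypoxia list was lower at the same time. Of 21 genes of the HIF system and its targets, 10 lower and 0 higher passed at 6-dpf, against 5.61% of all genes lower, with a median of -0.36. Car9, a carbonic anhydrase, had -2.69 ± 0.24 SE, adjusted p = 0.000531, the collagen prolyl hydroxylase gene P4ha2 -1.70 (adjusted p = 0.00254) and the mitophagy gene Bnip3 -1.66 (adjusted p = 0.000623). At 3-dpf 0 of the 21 passed (median -0.01), at 10-dpf Vegfa (-0.80, adjusted p = 0.00377) and Epas1 (-0.60, adjusted p = 0.0167) were lower, and at 14-dpf Bnip3 was higher (1.07, adjusted p = 0.0106). The summed level of the list was 2252 to 2769 CPM in WT and 1548 to 1870.3 CPM in P-Apex1KO mice at 6-dpf, and 1671 to 2053 and 1704 to 2048 CPM at 3-dpf.

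Genes of neighbouring pathways were called in both directions at 6-dpf, where 10.9% of all genes passed. Among 17 tested of 22 other genes of glycolysis, glucose and lactate transport 3 were lower, among them the transporter Slc2a10 (-1.12, adjusted p = 0.0089) and Bsg, the chaperone of the lactate transporters (-0.70, adjusted p = 0.0184), and 3 higher, Ldhd (0.97, adjusted p = 0.0253), Tigar (0.84, adjusted p = 0.036) and Slc2a9 (0.74, adjusted p = 0.0397). Of 6 tested of 7 gluconeogenesis genes Pck2 was lower (-0.63, adjusted p = 0.0025) and Fbp2, the muscle isoform, higher (1.88, adjusted p = 0.00815). Of 12 tested of 13 glycogen genes Pygm (1.59, adjusted p = 0.0239) and Phkg1 (1.53, adjusted p = 0.0275), both of muscle, were higher. The pentose phosphate list had 0 lower and 0 higher of 8. Of 10 genes for the pyruvate dehydrogenase complex and the mitochondrial pyruvate carrier, Pdp2 was lower (-0.58, adjusted p = 0.0205) and Mpc2 higher (0.35, adjusted p = 0.0436). The tricarboxylic acid cycle had 0 lower and 4 higher of 16 (median 0.20), with Idh3b (0.39, adjusted p = 0.0209), Idh3a (0.37, adjusted p = 0.0286) and Sdhb (0.30, adjusted p = 0.0312) leading.

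Within isoform families, the make-up of the callus RNA differed by genotype at 6-dpf; shares of the family's summed RPKM are given as a description, without a test. Eno1 held 75.7% ± 5.95 (SD, n = 5) of the enolases in WT and 39.6% ± 8.10 (SD, n = 3) in P-Apex1KO mice, and Eno3 23.6% ± 5.92 and 59.6% ± 8.11. Pgam1 held 43.0% ± 8.36 of the mutases in WT and 15.1% ± 6.18 in P-Apex1KO mice, with Pgam2 as the rest. Pfkm was 45.7% ± 7.83 and 74.5% ± 8.22 of the phosphofructokinases, while Pfkl had 31.7% ± 4.86 and 13.5% ± 4.78. For each of these genes the shares of the genotypes did not overlap at 6-dpf. By label, the mean Pgam1 share was also lower in P-Apex1KO at 3-dpf (46.7% in WT and 31.5%), 10-dpf (51.1% and 27.1%) and 14-dpf (43.4% and 18.8%). Eno1 had 76.4% and 61.4%, 70.2% and 51.3%, and 63.5% and 34.7% at these times. The ranges of both genes overlapped between genotypes at these other times. Slc2a1 went the other way at 3-dpf, with mean shares of 35.4% in WT and 41.5%. Slc2a1 was 48.5% to 63.4% of the glucose transporters in the WT mice and 21.9% to 33.7% in the P-Apex1KO mice, and Slc16a3 49.1% to 67.4% and 39.3% to 45.8% of the lactate transporters. The lactate dehydrogenases held Ldha at 96.9% ± 0.536 and 96.6% ± 0.739, and the aldolases were 98.8% ± 0.324 and 99.9% ± 0.0558 Aldoa, so that Aldoc made up 0.851% to 1.72% of them in WT and 0.0584% to 0.156% in P-Apex1KO mice.

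**Figure D5:**
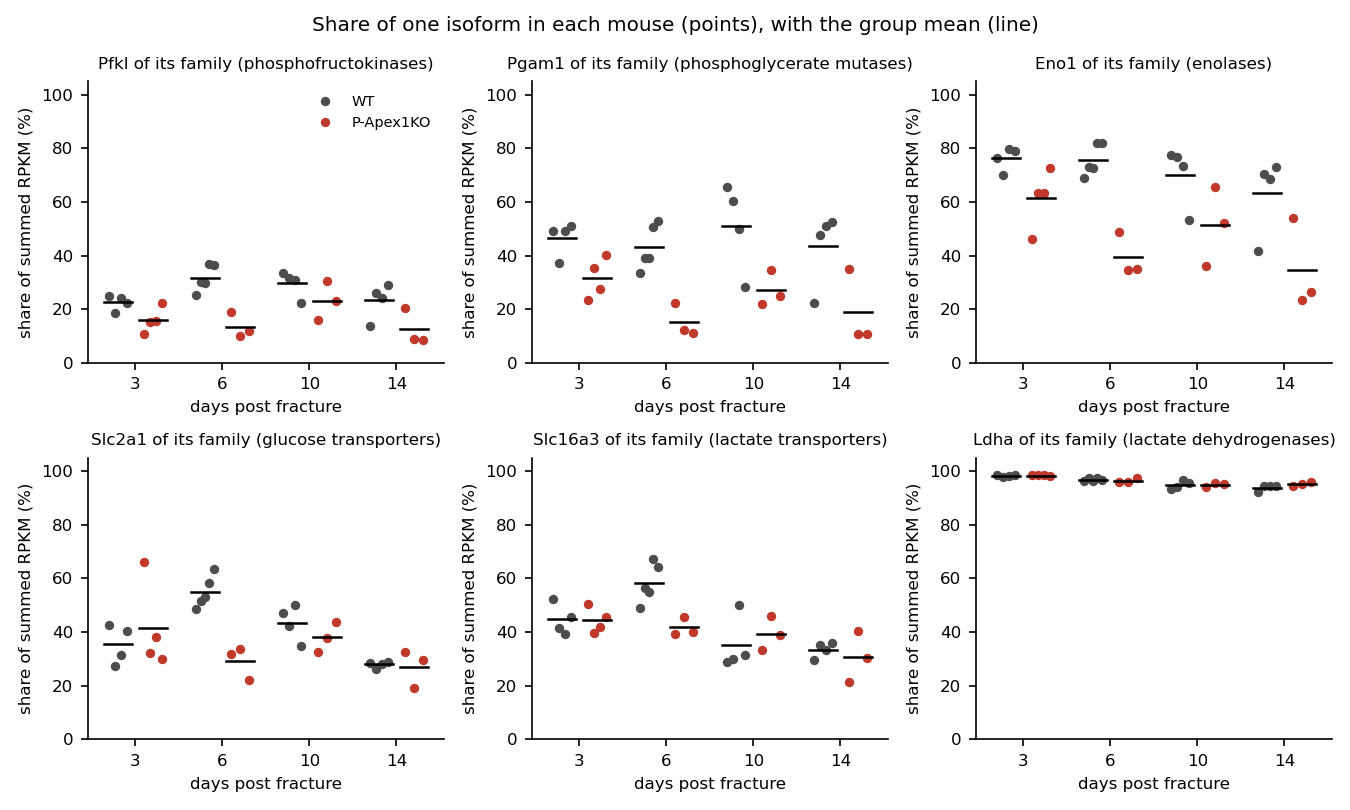
Share of 1 isoform in the summed RPKM of its family (y axes, percent from 0) in each mouse (points) by days post fracture (x axes), WT in grey and P-Apex1KO in red by label, with the group mean as a line. At 6-dpf Pfkl, Pgam1, Eno1, Slc2a1 and Slc16a3 lie lower in all 3 P-Apex1KO mice than in all 5 WT mice, and Ldha holds 92.1% or more of its family in every mouse.

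At 10-dpf the lower members of 6-dpf were no longer called. Aldoa was the one member past the threshold, higher in P-Apex1KO mice, 3.12% of the members against 3.01% of all genes higher, and 0 members were lower, against 3.44% of all genes, or 6.46% in either direction. It had 460.4, 424, 670.2 and 691 CPM in WT and 1048, 829.8 and 1028 CPM in P-Apex1KO mice, without overlap (0.79 ± 0.17 SE, adjusted p = 0.0365), and it lost the call without WT replicate 1 or 2 or P-Apex1KO replicate 1 or 3. The CPM did not overlap for 7 of 32 members, against 19.3% of all genes: Gpi1, Pfkm, Pfkfb4, Aldoa, Pgam2, Slc16a1 and Pdk2, each higher in P-Apex1KO mice. Above 0 were 28 of 32 members, with a median log2 fold change of 0.33 against a value near 0 over all genes, and 15 members had an unadjusted p under 0.05, with 24.3% of all genes. Slc2a1 had 37.5, 31.6, 67.6 and 36.6 CPM in WT and 44.7, 62.4 and 52.3 CPM in P-Apex1KO mice, and Aldoc 11.3, 9.73, 19.1 and 9.95 CPM and 10.3, 11.8 and 11.7 CPM. In both genes WT replicate 3 stood above the other 3 WT mice and the groups overlapped. The log2 fold change was 0.39 for Gapdh, 0.19 for Pgk1, 0.21 for Ldha, 0.26 for Pkm and 0.08 for Eno1. Slc16a1 (0.44, adjusted p = 0.0525) and Pfkfb4 (0.43, adjusted p = 0.0534) lay just outside the threshold. Higher members numbered 0 to 6 when one mouse was left out (0 without WT replicate 1 or 2 or P-Apex1KO replicate 1, 3 without WT replicate 4 or P-Apex1KO replicate 3, 5 without P-Apex1KO replicate 2 and 6 without WT replicate 3), 8 with DESeq2, where 1197 of 18910 genes were higher, and 0 without the sex term, where 330 of 18308 genes were. Over the fits with a mouse removed 21 to 1004 of all genes were higher.

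The log2 fold changes of the muscle isoforms at 10-dpf were 1.10 for Pfkm, 1.57 for Pgam2 and 1.40 for Eno3, and none passed (adjusted p = 0.111, 0.0824 and 0.137). Pgam2 had 6.31, 7.03, 16.8 and 27.8 CPM in WT and 43.3, 30.6 and 47.1 CPM in P-Apex1KO mice, and the groups did not overlap. The muscle list had 0 lower and 0 higher of 21 with a median of 1.40, and summed to 4438 to 10173 CPM in WT and 8624 to 26725 CPM in P-Apex1KO mice. Of the neighbouring pathways the glycogen list had 0 lower and 4 higher of 12, among them Pgm1 (0.80, adjusted p = 0.0266) and Ugp2 (0.75, adjusted p = 0.0186). In the pentose phosphate list G6pdx (0.44, adjusted p = 0.0486) and Taldo1 (0.35, adjusted p = 0.0423) were higher, and of the gluconeogenesis genes Fbp1 (1.29, adjusted p = 0.0278) and Pcx (0.63, adjusted p = 0.0126) were higher and Pck2 lower (-0.48, adjusted p = 0.0295). The list of the pyruvate dehydrogenase complex and pyruvate carrier had 0 lower and 0 higher of 10 and the tricarboxylic acid cycle 0 lower and 0 higher of 16.

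At 14-dpf 6 members were called, of which Pfkp and Pdk3 had also been called at 6-dpf: 4 were higher (12.5%, against 4.28% of all genes) and 2 lower (6.25%, against 7.04%), where 11.3% of all genes passed. Slc16a1, which encodes MCT1, had 72.6, 73.8, 73.4 and 71.7 CPM in WT and 122, 129 and 131 CPM in P-Apex1KO mice, a log2 fold change of 0.83 ± 0.11 SE, adjusted p = 0.00393. Hk3 had 22.8, 28.4, 25.2 and 28.8 CPM in WT and 42.9, 59.2 and 42.6 CPM in P-Apex1KO mice (1.11 ± 0.23 SE, adjusted p = 0.0198). Slc2a3 had 41.4, 60.3, 57.9 and 59.9 CPM and 66.9, 91.8 and 72.5 CPM (0.92 ± 0.19 SE, adjusted p = 0.0208). In these 3 genes and in Pfkp (38.5, 47.4, 45.6 and 45.9 against 58.8, 52.6 and 58.9 CPM, 0.58 ± 0.12 SE, adjusted p = 0.0201) every P-Apex1KO mouse lay above every WT mouse. Pdk3 went down, with 45.3, 45.6, 43.9 and 45.5 CPM in WT and 32.9, 26.3 and 28.4 CPM in P-Apex1KO mice (-0.61 ± 0.13 SE, adjusted p = 0.0246). Ldhb was called lower (-0.55 ± 0.14 SE, adjusted p = 0.0414), but its groups overlapped at 29.8, 19.9, 19.4 and 21.3 and 18.8, 21.2 and 20.1 CPM, and the call rests on the WT female, replicate 1. Without that mouse and the sex term, a setting added once the values were known, Ldhb had 0.03 (adjusted p = 0.84), Slc16a1 0.85 (adjusted p = 0.000366), Hk3 0.86 (adjusted p = 0.00527), Slc2a3 0.42 (adjusted p = 0.0373), Pfkp 0.34 (adjusted p = 0.0156) and Pdk3 -0.58 (adjusted p = 0.00449). In that fit 3185 of 18101 genes were higher and 2996 lower. It sets male WT mice against female P-Apex1KO mice, so genotype and sex cannot be told apart in it.

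WT and P-Apex1KO mice were apart in CPM at 14-dpf for 9 of 32 members, against 42% of all genes, and 9 had an unadjusted p under 0.05, against 27.6%. Slc2a1 and Aldoc, which had fallen most at 6-dpf, had 0.78 (adjusted p = 0.0649) and -0.33 (adjusted p = 0.573) at 14-dpf. The log2 fold change was 0.46 for Gapdh, 0.44 for Pgk1, 0.29 for Ldha, 0.22 for Pkm, 0.15 for Eno1 and 0.62 for Aldoa, without a call. Pfkm, Pgam2 and Eno3 had 0.77, 0.69 and 0.88 with sex in the model and 1.94, 2.38 and 2.49 without WT replicate 1 and the sex term, where each passed. The latter fit compares male WT with female P-Apex1KO mice, so sex cannot be told apart from genotype in these values. WT replicate 1 had 169 CPM of Pfkm and the other 3 WT mice 68.3 to 84.6 CPM, and P-Apex1KO replicate 1 had 127 CPM against 349 and 374 CPM in the other 2 P-Apex1KO mice. Without the sex term 14 members were higher and 1 lower, where of 18410 genes 3467 were higher and 3382 lower. With all 30 samples in one model the members numbered 19 and 1, where of 20642 genes 2619 were higher and 3569 lower. When one mouse was left out, 1 to 13 members were higher (13 without P-Apex1KO replicate 1, 1 without WT replicate 2, 2 without WT replicate 3 or 4) and 0 to 2 lower (0 without WT replicate 2, 3 or 4, 1 without P-Apex1KO replicate 3), while of all genes 397 to 1649 were higher and 809 to 2124 lower. Slc16a1 passed in each of these 6 fits and under each alternative with all mice. None of the 6 leaves out WT replicate 1, since that fit cannot be estimated. With sex fitted, that mouse sets the genotype difference, so leaving out a WT male tests little of it. The median of the members was 0.44 in the main fit and also 0.44 without WT replicate 2, 3 or 4. Hk3 lost its call without WT replicate 2, Slc2a3, Pfkp and Pdk3 without WT replicate 2, 3 or 4, and Ldhb without WT replicate 2, 3 or 4 or P-Apex1KO replicate 3.

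Lists of neutrophil and erythroid genes were higher at 14-dpf. The neutrophil list had 0 lower and 8 higher of 10 (median 1.21) and summed to 1302 to 1998 CPM in WT and 2734 to 3480.1 CPM in P-Apex1KO mice, led by Ngp. The erythroid list had 0 lower and 6 higher of 7 (median 1.11), with 868 to 960.4 and 1979 to 2337 CPM, and the macrophage list 2 lower and 6 higher of 10 (median 1.00), with overlapping sums of 1046 to 1229 and 1060.4 to 1217 CPM. The lymphocyte list had 0 lower and 0 higher of 9 (median 1.71), with 82.6 to 109.8 and 173 to 499 CPM. The osteoclast list was lower, with 7 lower and 0 higher of 7 and 12058 to 13693 against 1587 to 3090.4 CPM, as was the osteoblast list, with 4 lower and 0 higher of 8 and 70752 to 96688 against 17616 to 19025 CPM. The cartilage list had 2 lower and 15 higher of 17 (median 3.29) with overlapping sums of 5359 to 12856 and 8458 to 12377 CPM. Its mean sums were close, at 10104 CPM in WT and 10302 CPM in P-Apex1KO mice. The muscle list had 0 lower and 0 higher of 21 with 3360.4 to 11950.3 and 12326 to 37011 CPM. With sex fitted, the calls and medians of all these lists rest on WT replicate 1, the single WT female. No fit without that mouse was made for the lists. The part of these cells in the values of Slc16a1, Hk3, Slc2a3, Pfkp, Pdk3 and Ldhb was not tested. Of the other glycolysis, glucose and lactate genes Bpgm (1.11, adjusted p = 0.00166), which makes bisphosphoglycerate in red cells, and Adpgk (0.65, adjusted p = 0.035) were higher and the lactate and pyruvate transporter gene Slc16a7 (-1.21, adjusted p = 0.00541) and Slc2a10 (-0.92, adjusted p = 0.0266) lower. Pygl (0.95, adjusted p = 0.0073) of the glycogen list and Pcx (0.61, adjusted p = 0.037) were higher, and Pck2 (-1.03, adjusted p = 0.00534) and H6pd (-0.62, adjusted p = 0.0232) lower. The list of the pyruvate dehydrogenase complex and pyruvate carrier had 0 lower and 0 higher of 10 and the tricarboxylic acid cycle 0 lower and 0 higher of 16.

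Between 10- and 14-dpf the genotype difference of no member changed past the threshold, by edgeR, against 0.436% of all genes called, 0.396% lower and 0.0406% higher. An unadjusted p under 0.05 was reached by 4 members, against 13.1% of all genes. DESeq2 called 1 member lower, Ldhb, which was named after its value was seen. By DESeq2 349 of 19705 genes were lower and 116 higher. In WT 4 members were lower at 14-dpf than at 10-dpf (12.5%, against 4.92% of all genes) and 0 higher (against 6.19%), where 11.1% of all genes passed. An unadjusted p under 0.05 was reached by 12 members, against 25.4% of all genes, and the CPM of the times did not overlap for 6, against 19.7%. The 4 lower members were Slc2a1 (-0.98 ± 0.18 SE, adjusted p = 0.0042), Pfkl (-0.66 ± 0.12 SE, adjusted p = 0.00458), Eno1 (-0.44 ± 0.12 SE, adjusted p = 0.0293) and Slc16a1 (-0.39 ± 0.09 SE, adjusted p = 0.0127). Slc2a1 fell in WT from 37.5, 31.6, 67.6 and 36.6 CPM to 18.6, 24.0, 25.2 and 27.3 CPM. Without WT replicate 3 of 10-dpf, the mouse with the highest Slc2a1, 2 members passed, and Eno1 (adjusted p = 0.149) and Slc16a1 (adjusted p = 0.0557) did not. Eno1 also lost its call without WT replicate 2 of 10-dpf or WT replicate 2, 3 or 4 of 14-dpf, and without WT replicate 4 of 10-dpf 6 members passed. Of all genes 970 were lower in the main fit, 528 without WT replicate 3 of 10-dpf and 942 without replicate 4. Gapdh, Pgk1, Ldha, Pkm and Aldoa had -0.18, -0.39, -0.23, -0.21 and 0.04 in WT, and Pfkm, Pgam2 and Eno3 0.03, 0.35 and 0.10. In P-Apex1KO mice 0 members passed over this interval by edgeR, against 0.259% of all genes (0.228% lower and 0.0304% higher). DESeq2 called 0 members, where 374 of 19705 genes were lower and 176 higher. An unadjusted p under 0.05 was reached by 4, against 14.3%, the CPM did not overlap for 6, against 20%, and Slc2a1, Pfkl, Eno1 and Slc16a1 had -0.42, -0.53, -0.25 and 0.10. Gapdh, Pgk1, Ldha, Pkm and Aldoa had 0.23, 0.06, 0.02, -0.06 and 0.29 in these mice, and Pfkm, Pgam2 and Eno3 0.38, 0.57 and 0.55. Apex1 had -0.08 ± 0.12 SE (adjusted p = 0.744) in WT, 0.28 ± 0.15 SE (adjusted p = 0.427) in P-Apex1KO mice and 0.35 ± 0.20 SE (adjusted p = 0.481) as the difference.

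Over the 4 time points 11 of 32 members were called at none, 18 at 1 and 3 at more than 1. The matching shares of all genes were not counted, so whether the members differ from the background here was not tested. Of the members, 3 were called at more than 1 time. These were Aldoa, higher at 6- and 10-dpf, Pdk3, lower at 6- and 14-dpf, and Pfkp, lower at 6-dpf and higher at 14-dpf. In CPM, Pfkp, the platelet-type phosphofructokinase, was at 80.3 ± 13.1 (SD, n = 5) in WT against 49.2 ± 2.10 (SD, n = 3) in P-Apex1KO mice at 6-dpf, and at 44.3 ± 3.97 (SD, n = 4) against 56.7 ± 3.63 (SD, n = 3) at 14-dpf. The change between these 2 times was not tested. The 11 members with no call were Hk1, Hk2, Gpi1, Pfkfb1, Pfkfb2, Pfkfb3, Gapdh, Eno2, Pkm, Ldha and Pdk4, among them 3 of the 4 genes with the highest RPKM. For Ldha the log2 fold change lay between -0.34 at 6-dpf and 0.29 at 14-dpf, and for Gapdh between -0.24 and 0.46.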

How the data were processed

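Total RNA of 30 fracture callus samples from mice was depleted of ribosomal and globin RNA and sequenced as stranded libraries. Per the labels and the study's methods, the authors demultiplexed with bcl2fastq 2.20, aligned to mm39 with STAR 2.7.0d and counted unique, reverse-stranded alignments per gene with featureCounts; the deposited values are raw counts. The table holds 55416 gene IDs, 667 of them without a position in the annotation used here (GENCODE on GRCm39, the same assembly). Every column was mapped to a sample by its name, and 0 columns were left over.

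Counts were tested with edgeR 4.0.16 in R 4.3.3 (TMM scaling, filterByExpr with the design, robust quasi-likelihood F test), with genotype and sex at each time point, and with 4 groups and sex for 3- with 6-dpf and 10- with 14-dpf. P-values were adjusted by Benjamini-Hochberg over every gene tested and called at 0.05. RPKM used the length of the canonical transcript. Differences are given as P-Apex1KO minus WT, or later minus earlier, on the log2 scale. The test was tested on simulated data with known changes before use. Replicates are numbered in the labels and were taken as separate mice.

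The 32 genes, the lists of pathways and cell types and the tests were chosen with earlier results of these data known. Every member past the threshold was named with values in each comparison, with Gapdh, Pgk1, Ldha, Pkm, Eno1, Aldoa and the 3 muscle isoforms besides; of pathway lists up to 3 called genes per direction were named, except for items that are not reported here. Hk2 at 3-dpf and the members close to the threshold, or without overlap, were named after their values were seen. Alternatives were a fit without sex, DESeq2 1.42.0, other scalings, no filter, a replicate block, a muscle score, all 30 samples in one model and each mouse left out; the fit without both WT replicate 1 and the sex term at 14-dpf was chosen after seeing the data. That 14-dpf fit leaves only male WT and only female P-Apex1KO mice, so genotype and sex are confounded in it. The muscle score is computed from the muscle list in the same libraries.

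Replicate numbers are shared between genotypes. The labels do not say whether same-numbered mice are pairs. The correlation of same-numbered mice in their deviations from the group means was 0.479, 0.116, 0.173 and 0.132 at 3-dpf, all over 0.1. It was at or under 0.1 for at least 1 pair at each later time. Some same-numbered mice at 3-dpf also share their sex, so these values cannot tell pairs from shared sex. The main test fitted sex and no pairs, with the replicate block as an alternative. Intervals for counting error were not used. Promoter windows came from RefSeq on GRCm38.p6.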

Additional observations from a re-analysis of the deposited data

Results flagged for a closer look

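The 32 genes were examined in each group of 4 or 5 mice, 160 sets of values in all, and in 15 of them 1 mouse stood apart from the rest by Dixon's criterion, where chance gives about 1 in 20. At 14-dpf WT replicate 1, the single WT female, had 169 CPM of Pfkm (68.3 to 84.6 in the other WT mice), 39.1 CPM of Pgam2 (11.8 to 12.9), 162 CPM of Eno3 (48.1 to 58.7), 38.7 CPM of Pdk2 (22.8 to 24.7) and 41.4 CPM of Slc2a3 (57.9 to 60.3). With sex in the model the 14-dpf differences rest on this mouse.

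At 10-dpf WT replicate 3 was high for genes of the list that was lower at 6-dpf, with 67.6 CPM of Slc2a1 (31.6 to 37.5 in the other WT mice), 19.1 CPM of Aldoc (9.73 to 11.3) and 306 CPM of Eno1 (181 to 194), and for Pfkfb3, with 98.2 CPM (67.7 to 69.0). At 3-dpf replicate 1 of the libraries labelled P-Apex1KO had 62.2 CPM of Hk1 (126 to 136 in the others) and 716 CPM of Ldha (579 to 592), and WT replicate 1 had 4.21 CPM of Eno2 (2.94 to 3.13). At 6-dpf the mice apart were WT replicate 1 for Pdk4, with 113 CPM (24.1 to 43.4), WT replicate 4 for Gpi1, with 339.7 CPM (292 to 305), and WT replicate 5 for Aldoc, with 33.8 CPM (19.0 to 23.0).

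The genotype difference changed between 3- and 6-dpf, by edgeR's interaction test, for Aldoc (-2.74 on the log2 scale), Slc2a1 (-1.86), Slc16a3 (-0.99), Pfkl (-0.96), Pgam1 (-0.85), Eno1 (-0.83) and Pgk1 (-0.78). At 3-dpf Apex1 was not lower in the libraries labelled P-Apex1KO past the threshold.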

How the results depend on the processing

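Counts of members are given as lower, then higher. At 3-dpf 0 and 0 passed, and 0 and 1 with DESeq2, where of 19866 genes 3 were lower and 82 higher. At 6-dpf 11 and 6 passed, with 3 higher without the filter, 7 and 1 with the replicate block, 0 and 0 with the muscle score, and 4 higher with all 30 samples. Of all genes 1137 and 1075 passed in the main fit, 408 and 269 with the block, and 0 and 1 with the muscle score. Higher genes numbered 1056 without the filter and 1188 with all 30 samples. At 10-dpf 0 and 1 passed, with 0 higher without sex or with the muscle score, 8 with DESeq2, 3 with library size alone, 5 without the filter, 5 with the replicate block and 2 with all samples. With the muscle score 1 and 5 of 18910 genes passed. Of all genes 570 were higher in the main fit, 330 without sex, 1197 with DESeq2 and 849 with library size alone. The number was 952 without the filter, 750 with the block and 684 with all samples. At 14-dpf 2 and 4 passed, with 1 and 14 without sex, 0 and 8 with library size alone, 1 lower without the filter or with the replicate block, 1 and 19 with all samples, and 1 and 14 without WT replicate 1 and sex. Of all genes 1424 and 865 passed in the main fit there, 3382 and 3467 without sex and 766 and 1878 with library size alone. Lower genes numbered 1558 without the filter and 1840 with the block, and all samples gave 3569 and 2619. Without WT replicate 1 and sex 2996 and 3185 passed, with male WT against female P-Apex1KO mice. The interaction of 3- and 6-dpf had 7 lower and 3 with the replicate block, where 202 and 73 of all genes were lower. WT from 3- to 6-dpf had 2 and 10, with 6 and 6 under library size alone and 1 lower with the block, and P-Apex1KO had 7 and 2, with 3 and 1 with the block. Of all genes WT had 3085 and 3159, with 6984 and 1902 under library size alone and 2186 lower with the block. P-Apex1KO had 1414 and 1453 of all genes, with 752 and 869 with the block. Without sex, WT from 10- to 14-dpf had 2 lower in place of 4 and P-Apex1KO 1 in place of 0, and with the block WT had 2. The interaction of 10- and 14-dpf had 1 lower with DESeq2 in place of 0. Of all genes WT had 795 lower without sex and 711 with the block in place of 970. P-Apex1KO had 517 in place of 45 without sex, and the interaction 349 in place of 78 with DESeq2. The cause of these shifts was not tested. The labels do not say whether the replicate numbers pair the mice, and the main test fitted no pairs. At 3-dpf the block changed no member's call.

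With one mouse left out, members ranged from 0 to 0 at 3-dpf, from 8 to 11 lower and 2 to 7 higher at 6-dpf, 0 to 6 higher at 10-dpf, and 0 to 2 lower and 1 to 13 higher at 14-dpf. The interaction of 3- and 6-dpf ranged from 3 to 8 lower, WT from 3- to 6-dpf from 1 to 2 lower and 8 to 14 higher, P-Apex1KO from 3 to 7 lower and 2 to 5 higher, WT from 10- to 14-dpf from 2 to 6 lower, and the interaction of 10- and 14-dpf and P-Apex1KO over that time from 0 to 1 lower. All genes from 3- to 6-dpf ranged from 2139 to 3431 lower and 2418 to 3495 higher in WT. In P-Apex1KO the ranges were 552 to 1627 lower and 671 to 1631 higher. From 10- to 14-dpf 528 to 1311 of all genes were lower in WT. The 14-dpf fit with sex but without WT replicate 1 could not be fitted, since that mouse is the only WT female.

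Of single genes, Pfkm (-0.14, adjusted p = 0.861) and Pdk2 (-0.10, adjusted p = 0.904) at 6-dpf changed sign with the muscle score, Pkm in WT from 3- to 6-dpf had -0.24 (adjusted p = 0.0235) under library size alone, and Ldhb at 14-dpf had 0.030 (adjusted p = 0.84) without WT replicate 1 and sex. Library size alone moved the median of all genes to 0.20 at 6-dpf, 0.31 at 14-dpf, -0.27 for WT from 3- to 6-dpf, 0.25 for the first interaction and 0.16 for the second. The share of all calls that were lower went with it, from 51.4% to 22.6% at 6-dpf, 53.3% to 35.3% at 10-dpf, 62.2% to 29% at 14-dpf, 49.4% to 78.6% for WT from 3- to 6-dpf and 75.7% to 32.8% for the first interaction. Each member passed the filter on low counts, and the groups held 3 to 5 mice.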
